A study of Mus musculus with 8 samples.

Results

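Cholesterol synthesis, its regulators and cholesterol handling were followed in the striatum of Dclk3 knockout and wild-type mice through 31 listed genes. The genes were taken by symbol, and all 31 were found among the 31417 genes of the count table and passed the filter on low counts, which 16511 genes passed. Of these, 8 encode enzymes of the isoprenoid steps, 12 enzymes of the sterol steps, 6 regulators, and 5 proteins of cholesterol transport, turnover and export. None of the 31 is a lipoprotein receptor, so uptake is described from a separate list of 9 genes.

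The tested mice were 4 Dclk3 knockouts aged 12 months, and they were set against 4 wild-type controls of the same age. RNA came from 1 striatum of 1 mouse per library, and poly(A) RNA was sequenced. Sex, strain, the deleted part of Dclk3 and the cells in which it is deleted are not stated in the sources used. Total counts ran from 24441242 to 34919463 in knockout libraries and from 28776767 to 37145559 in wild-type libraries. Knockout replicate 4 and wild-type replicate 4 stood farthest apart on the first principal component of all genes, which held 26.8% of the variance.

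Most brain cholesterol is made in the brain, because plasma lipoproteins do not cross the blood-brain barrier. Acetyl-CoA is built into mevalonate and then isoprenoid units, and these are joined to squalene, closed to lanosterol and trimmed to cholesterol. SREBP-2, the product of Srebf2, is carried from the endoplasmic reticulum by SCAP when sterol is low, is cut in the Golgi and then switches on the synthesis genes, while INSIG proteins hold it back when sterol is high. Neurons dispose of cholesterol as 24-hydroxycholesterol, made by CYP46A1, and astrocytes load it onto apolipoprotein E through ABC transporters that are under the control of liver X receptors. Myelin holds most of the brain's cholesterol.

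The letters before the start of 3 members are shown because these genes stand at different places of the circuit: an SREBP-2 target, SREBP-2 itself and a liver X receptor target. They come from RefSeq (GRCm38.p6), run 5′ to 3′ on the gene's own strand and end before the annotated start. Capitals mark TCACNCCAC, written here as the sterol regulatory element, CCAAT, which the factor NF-Y binds, and GGGCGG, which Sp1 binds, or their reverse complements GTGGNGTGA, ATTGG and CCGCCC. The region of Hmgcs1 is chr13:119690101-119690350 on the plus strand, that of Srebf2 is chr15:82147019-82147180 on the plus strand, and that of Apoe is chr7:19699189-19699438 on the minus strand.
Hmgcs1: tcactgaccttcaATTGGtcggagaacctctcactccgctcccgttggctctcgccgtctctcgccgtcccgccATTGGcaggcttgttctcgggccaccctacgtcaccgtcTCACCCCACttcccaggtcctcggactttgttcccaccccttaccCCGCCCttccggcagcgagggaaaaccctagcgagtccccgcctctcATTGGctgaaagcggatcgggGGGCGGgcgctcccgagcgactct
Srebf2: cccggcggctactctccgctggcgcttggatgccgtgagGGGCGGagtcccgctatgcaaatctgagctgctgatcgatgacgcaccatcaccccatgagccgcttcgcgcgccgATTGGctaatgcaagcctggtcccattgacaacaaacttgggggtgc
Apoe: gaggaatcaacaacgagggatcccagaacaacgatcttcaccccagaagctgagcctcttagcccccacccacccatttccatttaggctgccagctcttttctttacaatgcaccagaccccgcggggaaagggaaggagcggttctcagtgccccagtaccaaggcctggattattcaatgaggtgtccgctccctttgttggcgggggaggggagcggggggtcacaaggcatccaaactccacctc
Within these letters, Hmgcs1 holds 1 sterol regulatory element, 3 CCAAT and 2 GGGCGG matches, Srebf2 holds 1 CCAAT and 1 GGGCGG match, and Apoe holds 0 of each. The letters of Srebf2 hold tcaccccat, which differs from the sterol regulatory element in its last letter only. No element for liver X receptors was searched, so the counts do not contrast the places of these genes in the circuit.

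Of the 31 genes, 27 had a RefSeq window from 250 bases before to 50 bases after a start, and Fdps, Fdft1, Sqle and Stard4 had none. CCAAT or its reverse was found for 22 of the 27 genes and for 16 of 17 synthesis genes with a window. Some genes have more than 1 start, and 62.2% of the 37 windows of these genes held CCAAT, against 37.4% of all 32851 windows. GGGCGG was found for 23 of the 27 genes, in 73.0% of their windows against 35.7% of all. TCACNCCAC was found for 1 of the 27 genes, Hmgcs1, in 2.7% of their 37 windows against 1.24% of all. Only exact matches were counted, here and in the letters above, so an element that differs by a letter would be missed. The shares describe letters in these windows and were not tested.

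Dclk3 itself, read first as a check of the labels, had 27.7, 19.6, 20.9 and 22.6 CPM in knockout replicates 1 to 4, against 95.1, 117, 80.9 and 86.1 CPM in wild-type replicates 1 to 4. CPM are a gene's counts per 1000000 counts of its library, scaled between libraries by the trimmed mean of M-values (TMM). Every knockout library lay below every wild-type library, and the log2 fold change was -2.06 (SE 0.14). The quasi-likelihood test of edgeR, with Benjamini-Hochberg adjustment over the 16511 genes, gave an adjusted p of 0.000773. With no filter on low counts its adjusted p was 0.0647.

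None of the cholesterol genes changed past the threshold in the knockout. At an adjusted p under 0.05, 0 of 31 were called, where 0.00606% of all genes, Dclk3 alone, were called. The adjusted p was 0.999 for each of the 31. At an unadjusted p under 0.05 the count was also 0 of 31, against 3.76% of all genes, while the DESeq2 Wald test put 1 gene, Srebf2, and limma-voom 2 genes, Scap and Cyp46a1, under that bound. Neither of these tools called any of the 31 after adjustment. The 2 genotypes overlapped for all 31 genes, while they stood apart for 1.93% of all genes.

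The intervals limit how large a change could be. For 30 of the 31 genes, 96.8%, the 95% interval left room for a change of less than 1.5-fold up or down, against 77.8% of all genes. The gene outside 1.5-fold was Idi1, the isomerase that interconverts the 5-carbon isoprenoid units, which had only 22 to 49 counts per library.

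Small differences pointed mostly one way, and for the synthesis genes the size of this leaning varied with the libraries kept. The log2 fold change, knockout over wild type, was below 0 for 26 of the 31 genes and for 16 of 20 synthesis genes, against 50.5% of all genes. The median was -0.071 over the synthesis genes, -0.127 over the isoprenoid steps and -0.059 over the sterol steps, against -0.001 over all genes. With replicate 4 of both genotypes left out, 8 of 20 synthesis genes lay below 0 and their median was 0.036. For these same genes knockout replicate 4 was the lowest library (mean log2 level -0.23) and wild-type replicate 4 among the highest (0.13). A rise of the median therefore follows from leaving them out, and no other pair was left out. This fit cannot decide whether the leaning goes with genotype. Without knockout replicate 4 alone the median was -0.017, with 12 of 20 below 0, and without wild-type replicate 4 alone it was -0.010, also with 12 of 20. Leaving out other libraries moved it the other way, to -0.115 with 17 of 20 below 0 without knockout replicate 2 and to -0.106 with 20 of 20 without wild-type replicate 2. Over all fits without a single library it ran from -0.115 to -0.010, and with limma-voom it was -0.014. For the other roles the medians stayed below 0 without both replicates 4, where 48.9% of all genes lay below 0. The regulator median was then -0.092, against -0.073 with all libraries, with 4 of 6 below 0 in place of 6. Insig1 (0.142) and Insig2 (0.014) then lay above 0. The median of the transport, turnover and export genes was -0.097, against -0.085. Of these, 4 of 5 lay below 0 both times, but Stard4 turned above 0 (0.041) and Abca1 below (-0.037).

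**Figure D1:**
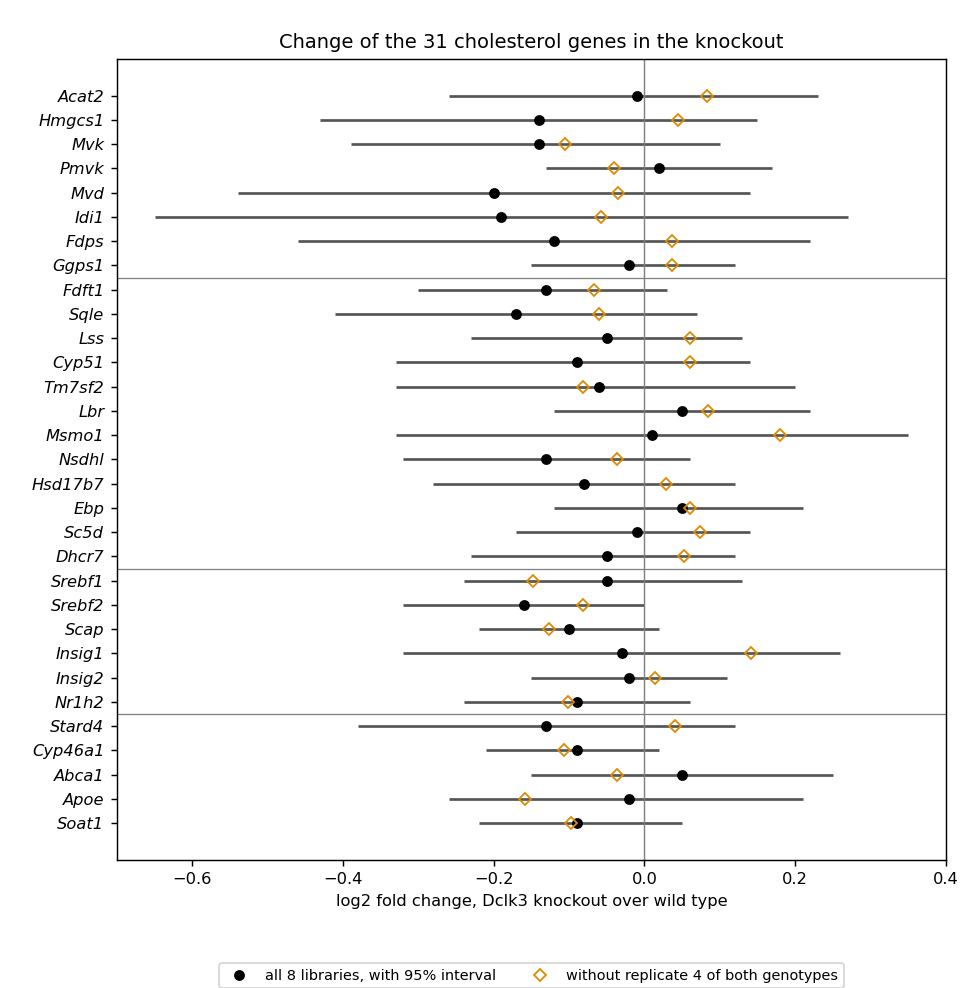
Log2 fold change of the 31 genes, knockout over wild type, in the order of the pathway and divided by role. Black points and bars give the estimate and 95% interval from all 8 libraries, and open diamonds give the estimate without replicate 4 of both genotypes. All 31 intervals include 0, and 14 of the diamonds lie on the other side of 0 from their black point.

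Within each genotype, many of the synthesis genes were high or low in the same libraries, though correlation between genes was not tested. The mean over the 20 genes of log2 CPM, taken relative to the mean of the 8 libraries, was -0.01, 0.11, -0.02 and -0.23 in knockout replicates 1 to 4. It was -0.05, -0.08, 0.15 and 0.13 in wild-type replicates 1 to 4. Knockout replicate 4 was thus the lowest library and wild-type replicates 3 and 4 and knockout replicate 2 the highest, and the genotypes overlapped. The difference of the genotype means was -0.075, against SDs of 0.14 over the knockout libraries and 0.12 over the wild-type libraries (n = 4 each).

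Most single genes had their extremes in these libraries. Of the 20 genes, 12 had their lowest value of all 8 libraries in knockout replicate 4, where 14.9% of all genes were lowest, and 7 in wild-type replicate 2, where 17.9% of all genes were. The highest value was in wild-type replicate 4 for 10 genes, against 15.7% of all genes, and in wild-type replicate 3 for 7, against 15.2%. Among the knockouts alone, 13 of 20 genes were highest in replicate 2, against 23.4% of all genes, and 17 of 20 were lowest in replicate 4, against 28.4%. Pmvk ran the other way, with 37.9 CPM in knockout replicate 4 and 32.9 CPM in knockout replicate 2, and Ebp and Lbr were lowest among the knockouts in replicate 2. The ratio of the highest to the lowest library within a genotype exceeded the fold between the genotype means for 19 of 20 genes in the knockout and 20 of 20 in wild type.

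**Figure D2:**
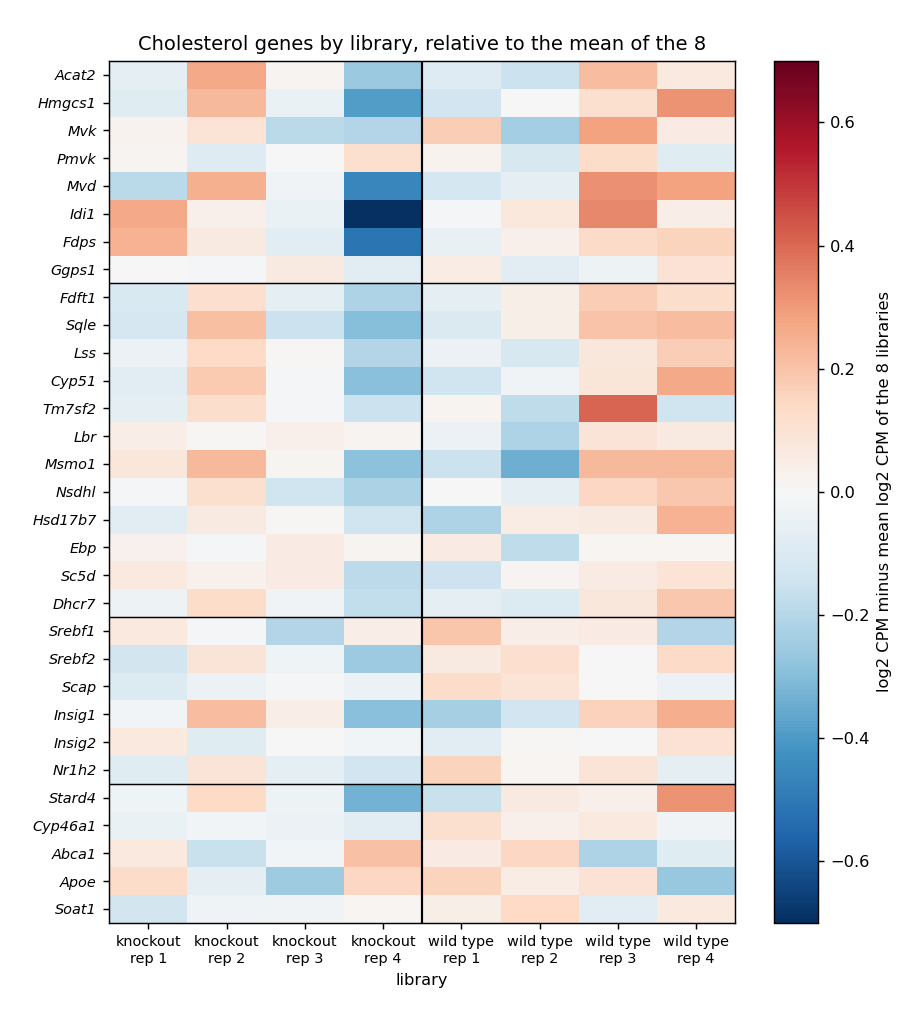
Log2 CPM of each gene minus its mean over the 8 libraries, by library, knockout left of wild type and roles divided by lines. Knockout replicate 4 is low for most synthesis genes and wild-type replicates 3 and 4 are high, while Apoe and Abca1 show another order.

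Markers of several cell types differed between these libraries. All 6 cortical glutamatergic markers lay below 0 in log2 fold change, with a summed level of 702 to 1156 CPM in knockout and 948 to 1395 CPM in wild type. Their mean log2 level relative to the 8 libraries was -0.21, 0.23, 0.15 and -0.62 in knockout replicates 1 to 4, and -0.14, 0.12, 0.15 and 0.31 in wild-type replicates 1 to 4, so that knockout replicate 4 was lowest and wild-type replicate 4 highest. All 7 thalamic markers lay above 0, with sums of 172 to 483 CPM in knockout, the highest in replicate 4, and 169 to 281 CPM in wild type. The 7 choroid plexus markers summed to 50.2 to 241 CPM in knockout and to 39.5 to 89.2 CPM in wild-type replicates 1 to 3, against 2914 CPM in wild-type replicate 4. All 12 oligodendrocyte markers lay above 0, with sums of 9466 to 11219 CPM in knockout and 7796 to 10603 CPM in wild type, and so did all 9 astrocyte markers, with 6124 to 6698 CPM in knockout and 5538 to 6167 CPM in wild type. The mean log2 level of the astrocyte markers, which weights them equally, did not overlap, at 0.02 to 0.15 in knockout and -0.13 to 0.00 in wild type. Of the 9, 5 were higher at an unadjusted p under 0.05 (edgeR), where 1.96% of all genes were, and 0 had an adjusted p under 0.05. All 7 microglial markers lay above 0, with 615 to 737 CPM in knockout, the highest in replicate 4, and 579 to 668 CPM in wild type. Of 6 endothelial markers 5 lay above 0, with 241 to 301 CPM in knockout and 193 to 263 CPM in wild type, and all 5 blood markers did, with 88.8 to 156 CPM in knockout and 56 to 93.1 CPM in wild type. All 5 ependymal markers lay below 0, with 20.6 to 27.6 CPM in knockout and 26.6 to 28.2 CPM in wild type, and their mean log2 level did not overlap, at -0.34 to -0.04 in knockout and 0.07 to 0.17 in wild type. The 9 markers of striatal spiny projection neurons were present in every library, at 4183 to 4791 CPM in knockout and 4199 to 5013 CPM in wild type. At an unadjusted p under 0.05 (edgeR), 3 of 12 oligodendrocyte, 3 of 5 blood and 1 of 6 endothelial markers were higher as well. At that bound 1 of 5 ependymal markers was lower, where 1.79% of all genes were. Genotypes stood apart for 2 of the 9 astrocyte and 1 of the 5 ependymal markers, against 1.93% of all genes. No marker of these lists was at 0 in all libraries. The part of these differences in the cholesterol genes was not tested. In a bulk library, fewer cells of a type and less RNA per cell cannot be told apart.

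**Figure D3:**
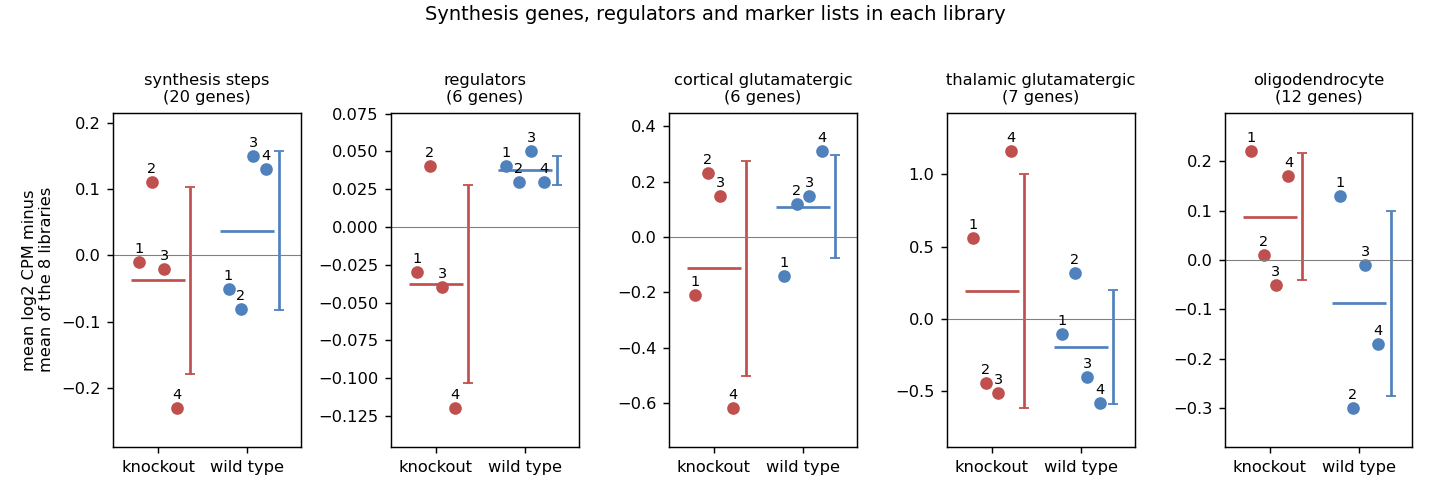
Mean log2 CPM of 5 gene lists relative to the mean of the 8 libraries, with replicate numbers beside the points; lines are genotype means and bars are 1 SD (n = 4), and each panel has its own vertical scale. Knockout replicate 4 is lowest for the synthesis genes at -0.23, for the regulators at -0.12 and for the cortical markers at -0.62, and highest for the thalamic markers at 1.16.

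Levels spanned a wide range along the pathway. Length here is the union of all annotated exons of a gene, which can exceed that of its main transcript, so the order is approximate. Per kilobase of annotated exon, Hmgcs1, the cytosolic synthase that makes HMG-CoA, stood highest among the synthesis genes, at 49.7 ± 8.61 CPM per kb in knockout and 54.7 ± 7.35 in wild type (SD, n = 4 each). Pmvk, phosphomevalonate kinase, came next, at 20.6 ± 1.2 CPM per kb in knockout and 20.4 ± 1.58 in wild type. Idi1 stood lowest, at 0.353 ± 0.0902 CPM per kb in knockout and 0.402 ± 0.0439 in wild type, followed by Fdps, farnesyl diphosphate synthase, at 0.982 ± 0.205 in knockout and 1.06 ± 0.0685 in wild type. Their counts are uncertain. Of the 50-base windows of Idi1, 25.3% also occur in other annotated genes, most of them in the processed pseudogene Gm13502, so reads can be left out or split in counting. Gm13502 itself stood at only 0 to 0.041 CPM, so few reads were assigned to it. Fdps shares 26.2% of its windows, 23.4% with Gm43738, an annotated gene that overlaps it on the same strand.

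**Figure D4:**
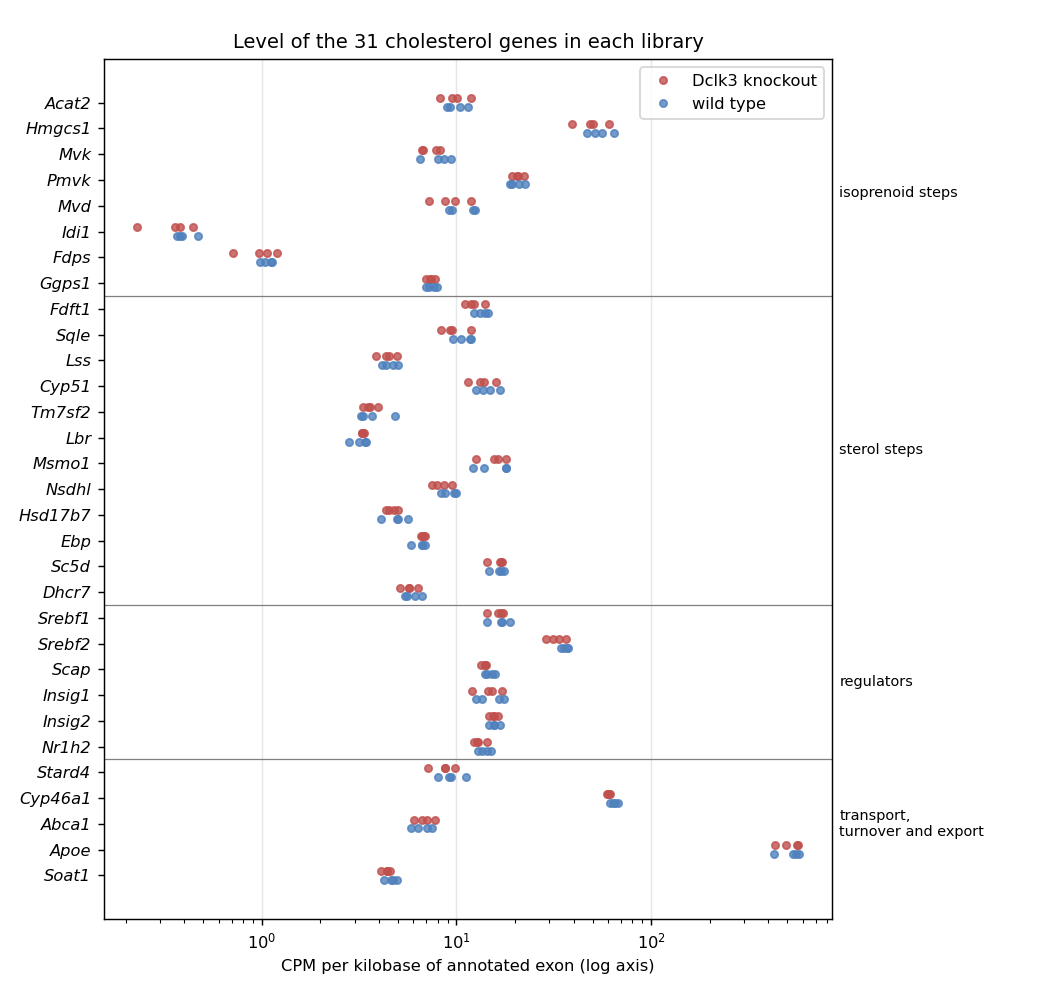
CPM per kilobase of annotated exon on a log axis for each library, knockout points above wild-type points for each gene. Apoe stands highest, with means of 515 in knockout and 522 in wild type, and Idi1 lowest, and the points of both genotypes overlap for each of the 31 genes.

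In the isoprenoid steps, 7 of 8 genes lay below 0. Mvd (ENSMUSG00000006517, chromosome 8, 122433601 to 122443422, minus strand, mm10), mevalonate diphosphate decarboxylase, had the smallest p of this group, with 16.2, 22.0, 18.2 and 13.5 CPM in knockout replicates 1 to 4, against 17, 17.7, 23.1 and 22.5 CPM in wild-type replicates 1 to 4. Knockout replicate 2 lay among the higher wild-type values, and only knockout replicates 1 and 4 lay below all wild-type libraries. Mvd had a log2 fold change of -0.20 (SE 0.15; interval at 95% from -0.54 to 0.14; unadjusted p = 0.218, edgeR), and -0.035 without both replicates 4.

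Hmgcs1, which carries the sterol regulatory element shown above, had 224, 278, 230 and 181 CPM in knockout replicates 1 to 4, against 216, 237, 256 and 295 CPM in wild-type replicates 1 to 4. Knockout replicate 4 was the lowest library, wild-type replicate 4 the highest, and knockout replicate 2 the next highest. In the fit Hmgcs1 had a log2 fold change of -0.14 (SE 0.13), and 0.045 without both replicates 4.

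Mvk, mevalonate kinase, ran from 17.8 to 22.0 CPM in knockout and from 17.4 to 25 CPM in wild type, with a log2 fold change of -0.14 (SE 0.11) that kept its sign in all 16 alternatives tried. Idi1 ran from 0.802 to 1.56 CPM in knockout and from 1.29 to 1.64 CPM in wild type, and Fdps from 2.99 to 5.04 CPM in knockout and from 4.11 to 4.74 CPM in wild type. Both had their lowest value in knockout replicate 4. Acat2, the cytosolic acetoacetyl-CoA thiolase, had a log2 fold change of -0.01, but 39.1% of its windows are shared with its neighbour in sequence Acat3. Pmvk had one of 0.02, and Ggps1, which makes the geranylgeranyl diphosphate used for protein prenylation, one of -0.02.

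In the sterol steps, 9 of 12 genes lay below 0. Fdft1 (ENSMUSG00000021273, chromosome 14, 63145150 to 63179578, minus strand), squalene synthase, the first enzyme committed to sterols, had 50.5, 59.0, 52.2 and 46.9 CPM in knockout replicates 1 to 4, against 52.0, 56.0, 61.4 and 59.4 CPM in wild-type replicates 1 to 4. The genotypes overlapped through knockout replicate 2, and wild-type replicate 1 lay among the knockout values. Fdft1 had a log2 fold change of -0.13 (SE 0.08; interval at 95% from -0.30 to 0.03; unadjusted p = 0.109, edgeR). Fdft1 overlaps the exons of Ctsb on the opposite strand, and Ctsb stood at 631 to 775 CPM. The sources used do not say whether the counting used strand, so reads of Ctsb may be in these values.

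Sqle, squalene epoxidase, a rate-limiting enzyme of the sterol steps, had 52.4, 65.8, 51.2 and 46.2 CPM in knockout replicates 1 to 4, against 53.0, 58.4, 65.2 and 66.0 CPM in wild-type replicates 1 to 4. Knockout replicates 1, 3 and 4 lay below every wild-type library, and knockout replicate 2 lay near the top. For Sqle the log2 fold change was -0.17 (SE 0.11). Without knockout replicate 2 the unadjusted p of Sqle fell below 0.05, as did those of Mvd, Fdft1 and Srebf2, 4 of the 31 genes, where 4.76% of all genes had such a p.

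The enzymes that follow lanosterol spread on both sides of 0. Msmo1, the sterol C4-methyl oxidase, ran from 77.6 to 111 CPM in knockout and from 74.8 to 111 CPM in wild type, with a log2 fold change of 0.01 (SE 0.15). Cyp51, the lanosterol 14-alpha-demethylase, ran from 50.4 to 70.1 CPM in knockout and from 55.9 to 74.2 CPM in wild type, a log2 fold change of -0.09 (SE 0.11). Nsdhl, a dehydrogenase that acts with Msmo1, had one of -0.13 (SE 0.09), and Hsd17b7, a sterol ketoreductase, one of -0.08 (SE 0.09). Lss, which closes the ring to lanosterol, and Dhcr7, which reduces 7-dehydrocholesterol, both had -0.05 (SE 0.08).

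Ebp and Lbr varied less. Ebp, the sterol isomerase, ran from 15.1 to 15.9 CPM in knockout and from 13.5 to 15.9 CPM in wild type, and Lbr, a sterol reductase of the nuclear envelope, from 15.5 to 15.9 CPM in knockout and from 13.3 to 16.4 CPM in wild type. Each had a log2 fold change of 0.05. Tm7sf2, the other sterol C14-reductase, had one of -0.06 (SE 0.12) and was highest in wild-type replicate 3 at 21.3 CPM, against 14.5 to 17.5 CPM in knockout. It overlaps Vps51 on the same strand. Sc5d, the sterol C5-desaturase, had a log2 fold change of -0.01 (SE 0.07), with knockout replicate 4 at 69.9 CPM and the other knockouts at 81.1 to 83.1 CPM.

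All 6 regulators lay below 0 in log2 fold change, with a median of -0.073. Srebf2 (ENSMUSG00000022463, chromosome 15, 82147181 to 82205379, plus strand, mm10) had the smallest unadjusted p of the 31 genes. It measured 225, 262, 241 and 206 CPM in knockout replicates 1 to 4, against 257, 267, 246 and 270 CPM in wild-type replicates 1 to 4. Knockout replicates 1, 3 and 4 lay below all wild-type libraries and replicate 2 lay within them. Its log2 fold change came to -0.16 (SE 0.07; interval at 95% from -0.32 to 0.00; unadjusted p = 0.0558, adjusted p = 0.999, edgeR). It stayed below 0 in all 16 alternatives, from -0.216 to -0.082, with the value nearest 0 when both replicates 4 were left out, and adjusted p from 0.794 to 1.

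Insig1, itself a target of SREBP and a sensitive readout of it, had 45.1, 53.2, 47.2 and 37.3 CPM in knockout replicates 1 to 4, against 39.0, 41.7, 51.2 and 54.6 CPM in wild-type replicates 1 to 4. It was lowest in knockout replicate 4, as was the mean of the synthesis genes, and highest in wild-type replicate 4. For Insig1 the log2 fold change was -0.03 (SE 0.13), and 0.142 without both replicates 4.

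Scap ran from 99.8 to 106 CPM in knockout and from 104 to 117 CPM in wild type, a log2 fold change of -0.10 (SE 0.06; unadjusted p = 0.11, edgeR). Srebf1, whose product mainly drives fatty acid genes, had -0.05 (SE 0.09), Insig2 -0.02 (SE 0.06), and Nr1h2, the liver X receptor beta, -0.09 (SE 0.07). Without both replicates 4, Srebf1 was at -0.148, Scap at -0.126 and Nr1h2 at -0.101.

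Among transport, turnover and export genes, Cyp46a1 (ENSMUSG00000021259, chromosome 12, 108334381 to 108362234, plus strand) had the smallest p. It measured 198, 202, 199 and 194 CPM in knockout replicates 1 to 4, against 221, 210, 215 and 201 CPM in wild-type replicates 1 to 4. The genotypes overlapped only because wild-type replicate 4 lay just below knockout replicate 2, and the values varied less between libraries than those of the synthesis genes. Cyp46a1 had a log2 fold change of -0.09 (SE 0.05; interval at 95% from -0.21 to 0.02; unadjusted p = 0.103, edgeR), and it ran from -0.117 to -0.073 over the 16 alternatives, with adjusted p from 0.714 to 1.

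Apoe had 1203, 1049, 928 and 1220 CPM in knockout replicates 1 to 4, against 1228, 1142, 1182 and 915 CPM in wild-type replicates 1 to 4. Its lowest libraries were wild-type replicate 4 and knockout replicate 3, and the genotypes overlapped over their whole range. Apoe had a log2 fold change of -0.02 (SE 0.11), and -0.159 without both replicates 4.

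Abca1, the exporter that loads cholesterol onto apolipoproteins, had 73.3, 62.8, 69.2 and 80.7 CPM in knockout replicates 1 to 4, against 72.9, 77.5, 60.2 and 66.1 CPM in wild-type replicates 1 to 4. Knockout replicate 4, lowest for most synthesis genes, was highest for Abca1, and wild-type replicate 3 was lowest. The log2 fold change was 0.05 (SE 0.09), and -0.037 without both replicates 4.

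Stard4, a carrier of sterol between membranes, ran from 39.8 to 55.1 CPM in knockout and from 44.9 to 62.3 CPM in wild type, with the lowest value in knockout replicate 4 and the highest in wild-type replicate 4, as for Hmgcs1. Its log2 fold change was -0.13 (SE 0.11), and 0.041 without both replicates 4. Soat1, which stores cholesterol as esters, ran from 40.3 to 44.4 CPM in knockout and from 41.7 to 48.5 CPM in wild type, a log2 fold change of -0.09 (SE 0.06).

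Beside the 31 genes, 0 genes of 6 related lists passed the adjusted threshold. Of 9 uptake genes, 7 lay below 0 with a median log2 fold change of -0.027. The smallest p values were those of Scarb1, the high-density lipoprotein receptor, at -0.15 (SE 0.08), and Lrp8, an apolipoprotein E and reelin receptor, at -0.21 (SE 0.12). Of 10 other export and lipoprotein genes, 8 lay above 0 and 2 were higher at an unadjusted p under 0.05, where 1.96% of all genes were. Apod, a lipocalin of oligodendrocytes and astrocytes, had 323, 264, 259 and 396 CPM in knockout replicates 1 to 4, against 278, 228, 231 and 228 CPM in wild-type replicates 1 to 4 (log2 fold change 0.36, SE 0.13; unadjusted p = 0.0223, adjusted p = 0.999, edgeR). Lcat, which esterifies cholesterol on lipoproteins, had 20.9, 18.4, 21.7 and 21.4 CPM in knockout, against 20.0, 15.5, 19.3 and 15.7 CPM in wild type (0.23, SE 0.10; unadjusted p = 0.0375, adjusted p = 0.999, edgeR). Apod had a log2 fold change of 0.224 without knockout replicate 4 and of 0.199 without both replicates 4. With limma-voom the unadjusted p of each gene was above 0.05 (0.0584 for Apod, 0.11 for Lcat). With edgeR it was above 0.05 for each without both replicates 4, and without knockout replicate 1, wild-type replicate 2 or wild-type replicate 4. For Apod it was also above 0.05 without wild-type replicate 3 (0.0634, edgeR). For Lcat it was so without knockout replicate 3 (0.093, edgeR) or knockout replicate 4 (0.0773, edgeR). For both genes the genotypes overlapped, and the oligodendrocyte and astrocyte markers given above lay above 0 as well.

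Of 7 genes of oxysterols and ester turnover, 4 passed the filter and all 4 lay above 0, among them Cyp27a1, the sterol 27-hydroxylase, at 0.14 (SE 0.13) and Cyp7b1, an oxysterol 7-alpha-hydroxylase, at 0.11 (SE 0.09). Ch25h, Hsd3b7 and Soat2 were too low to test. Of 17 genes of regulation and intracellular transfer, 11 lay below 0, with a median of -0.011. Gramd1c, of a family of sterol carriers at membrane contacts, stood at 0.737, 1.18, 0.948 and 1.2 CPM in knockout, against 1.53, 1.15, 1.64 and 1.53 CPM in wild type (-0.51, SE 0.21; unadjusted p = 0.0298, adjusted p = 0.999, edgeR), with 18 to 56 counts per library, and 1.79% of all genes were lower at such a p. Its unadjusted p ran from 0.0138 to 0.0857 when single libraries were left out.

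The branch that leaves the isoprenoids was close to 0, with a median of 0.026 over 10 genes, 7 of them above 0. Dolk, dolichol kinase, had -0.09 (SE 0.07) and Pggt1b, a subunit of the geranylgeranyl transferase, 0.10 (SE 0.09). Of 13 fatty acid genes that SREBP also controls, 10 lay above 0 with a median of 0.068, among them Pnpla3, a lipase-like protein, at 0.15 (SE 0.11) and Elovl5, a fatty acid elongase, at 0.07 (SE 0.06). These medians stand beside -0.071 for the synthesis genes, and the difference between the lists was not tested.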

How the data were processed

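The deposited table gives raw read counts for each Ensembl gene in 8 libraries, made by the authors. The libraries were made from poly(A) RNA with a kit that marks strand, per the labels' protocols, and per the submitters' processing notes, bcl2fastq 2.17.1.14 and the build mm10 were used. The sources used do not name the aligner, the annotation or whether counting used strand. Of the gene identifiers, 31292 matched a GENCODE symbol, and the 125 others held 0.0436% of the counts and stayed in the fit.

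The fit used edgeR 4.0.16 in R 4.3.3, with filterByExpr (minimum count 10), TMM scaling and a robust quasi-likelihood test of genotype over 8 libraries. The p-values were two-sided and adjusted by Benjamini-Hochberg over 16511 genes. The test was run on simulated data first. Alternatives were upper-quartile and DESeq2 size factor scaling, leaving out the filter or asking for 1 CPM in 4 libraries, DESeq2 1.42.0, voom in limma 3.58.1, a replicate block, and fits without single libraries or without both replicates 4. Pairs of libraries of 1 genotype differed beyond sampling noise. A shared replicate number marked no shared origin in the labels.

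The genes and lists were chosen with earlier results of these data known, so no list was tested. Full values are given for the gene of each role with the smallest p, for Srebf2, Insig1, Apoe and Abca1, and, chosen after their values were seen, for Hmgcs1 and Sqle. In the related lists the genes at an unadjusted p under 0.05 are named, or else the 2 with the smallest p. Some cholesterol genes are not analysed here. Shared sequence was counted as 50-base windows of annotated transcripts. Each genotype had 4 animals, and counting error bears most on genes with few counts.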

Additional observations from a re-analysis of the deposited data

Results flagged for a closer look

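In 4 of 90 groups of 4 libraries, 4.44%, the highest or lowest library stood apart from the other 3 by Dixon's criterion, which chance meets in about 1 of 20 groups. Sc5d was low in knockout replicate 4, at 69.9 CPM against 81.1 to 83.1 CPM in the other knockouts. Apod was high in wild-type replicate 1, at 278 CPM against 228 to 231 CPM in the other wild-type libraries. Hsd3b7, a steroid dehydrogenase of bile acid synthesis, was at 0.574 CPM in knockout replicate 3, against 0.219 to 0.251 CPM in the other knockouts. Hsd3b7 had only 6 to 20 counts per library, and the wild-type libraries ran from 0.274 to 0.51 CPM. It did not pass the filter, and it overlaps Gm49388 on the same strand and 9430064I24Rik on the opposite strand.

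Ch25h, which makes 25-hydroxycholesterol, was at 5.07 CPM in knockout replicate 4, against 0.172 to 0.246 CPM in the other knockouts. The counts were 6, 6, 6 and 139 in knockout replicates 1 to 4, and 6, 9, 6 and 10 in wild-type replicates 1 to 4. This is the library in which most synthesis genes were lowest. It did not pass the filter and was not tested, and a gene on the opposite strand overlaps it.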

How the results depend on the processing

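The adjusted threshold was passed by 0 of the 31 genes in all 16 alternatives, with a lowest adjusted p of 0.672, and 11 genes kept a log2 fold change below 0 throughout while 20 changed sign at least once. The number of all genes called was 2 with DESeq2, 3 without both replicates 4 and 1 to 2 when single libraries were left out. Dclk3 had an adjusted p of 0.0647 and a log2 fold change of -2.07 with no filter. The only gene called with no filter was Malat1, and the genes called with DESeq2 were Dclk3 and Malat1.

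At an unadjusted p under 0.05 stood 1 of the 31 genes with no filter (3.75% of all genes) and 1 with DESeq2 (3.52%), Srebf2 in both, 2 with limma-voom (Scap and Cyp46a1; 4.36%), and 0 to 4 without single libraries, the 4 without knockout replicate 2 (4.76%). The genotypes did not overlap for 2 genes without both replicates 4 (Scap and Cyp46a1), where 13.5% of all genes did not overlap, and for 0 to 3 without single libraries, the 3 without knockout replicate 2 (5.36% of all genes). The synthesis genes below 0 numbered 8 of 20 without both replicates 4 and 12 to 20 without single libraries. The regulator median ran from -0.124 to -0.061 without single libraries.

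With the replicate block, 1 gene was called, 16 of 20 synthesis genes lay below 0 and their median was -0.063. The deviations of libraries with the same number correlated at 0.0373, 0.0205, 0.0532 and -0.276 for replicates 1 to 4. These values cannot decide whether such libraries shared a preparation, and the labels do not give one.

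Without both replicates 4 the sign turned for Abca1 (-0.037), Acat2 (0.083), Cyp51 (0.061), Dhcr7 (0.052), Fdps (0.036), Ggps1 (0.036), Hmgcs1 (0.045), Hsd17b7 (0.029), Insig1 (0.142), Insig2 (0.014), Lss (0.061), Pmvk (-0.040), Sc5d (0.074) and Stard4 (0.041). With limma-voom it turned for Acat2 (0.038), Hsd17b7 (0.011), Insig1 (0.074), Insig2 (0.004), Pmvk (-0.010) and Sc5d (0.049). Without single libraries it turned within these ranges: Abca1 -0.016 to 0.107, Acat2 -0.112 to 0.064, Apoe -0.106 to 0.052, Dhcr7 -0.107 to 0.005, Ebp -0.003 to 0.074, Fdps -0.223 to 0.008, Ggps1 -0.047 to 0.014, Insig1 -0.110 to 0.057, Insig2 -0.049 to 0.011, Lbr -0.009 to 0.089, Lss -0.106 to 0.009, Msmo1 -0.094 to 0.098, Pmvk -0.016 to 0.067, Sc5d -0.061 to 0.043, Srebf1 -0.124 to 0.004 and Tm7sf2 -0.133 to 0.077. The cause of these turns was not tested. Idi1 had the fewest counts, 22 to 49 per library.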
